A study of Mus musculus with 28 samples.

Results

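Events of the Forkhead factor FoxA1 were described at 10 genes of the fetal or adult liver: albumin (Alb), alpha-fetoprotein (Afp), transthyretin (Ttr), apolipoproteins A1 and B (Apoa1, Apob), the fibrinogen chains (Fgb, Fga, Fgg), tyrosine aminotransferase (Tat) and the alpha-2-HS-glycoprotein (Ahsg). An event is a single base at which ChIP-exo, chromatin immunoprecipitation with exonuclease trimming of the DNA ends, placed the factor. All events within 50 kb of either end of a member in the mm10 build were taken, for 10 of 21883 protein-coding genes. Alb and Afp share a locus, as do Fgb, Fga and Fgg, so the 10 genes make 7 loci and an event counts once per locus. The cells were MC1 mouse embryonic stem cells (129S6/SvEvTac) with a doxycycline-repressible, C-terminally FLAG-tagged factor at Rosa26, which was switched on by removing doxycycline and moving the cells to differentiation medium. The combined 24 h lists came from the FoxA1 line (3 libraries, of which 2 used anti-FLAG and 1 used anti-FoxA1), and from the FoxC1, FoxL2 and FoxP3 lines (2 anti-FLAG libraries each). The FoxA1 line also had lists at 0, 6, 12, 24 and 48 h with anti-FoxA1 and with anti-FLAG, from 1 library each. No list has a replicate beside it, so the comparisons are descriptions with no test, and how many clones or cultures stand behind a line is not given in the labels. No RNA was measured, so neither the embryonic stem cell label nor any expression of the 10 genes could be checked.

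FoxA1 belongs to the FoxA group of Forkhead factors, which can bind their sites in closed chromatin and which mark liver genes in foregut endoderm before those genes are switched on. In liver, FoxA proteins occupy an enhancer upstream of Alb and control regions of Ttr and Tat, and hepatocytes secrete the products of Alb and Ttr into plasma. The secretory label holds for 9 of the 10 members, since Tat is a cytosolic enzyme that degrades tyrosine.

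The RefSeq promoters of the members were read first, from 250 bases before to 50 bases after the start of the gene (GRCm38.p6). Of the 10 members, 9 had a promoter entry and Ttr had none. The 9 promoters were searched on both strands for 4 Forkhead motifs, TGTTTAC and TATTTAC as well as TGTTTGC and TATTTGC. A match was present in 6 of the 9, against 13.5% of 32851 promoters of the same length, where the single motifs were held by 3.65%, 3.04%, 5.07% and 2.76% in that order. The promoters of Alb, Afp and Apob each held 1 TGTTTGC, that of Apoa1 held 2 TGTTTGC, and that of Ahsg held a TATTTGC and a TGTTTGC. The promoter of Fgb held 1 TATTTAC, and those of Fga, Fgg and Tat held none of these letters. Of these promoters, 4 are printed 5′ to 3′ on the strand of the gene, with motif matches in capitals, because Fgb had the single event inside a member's promoter and the others held matches without an event. They are Fgb (chr3:83049814-83050113, minus strand), Alb (chr5:90460620-90460919, plus strand), Apoa1 (chr9:46228380-46228679, plus strand) and Ahsg (chr16:22891765-22892064, plus strand).
Fgb promoter: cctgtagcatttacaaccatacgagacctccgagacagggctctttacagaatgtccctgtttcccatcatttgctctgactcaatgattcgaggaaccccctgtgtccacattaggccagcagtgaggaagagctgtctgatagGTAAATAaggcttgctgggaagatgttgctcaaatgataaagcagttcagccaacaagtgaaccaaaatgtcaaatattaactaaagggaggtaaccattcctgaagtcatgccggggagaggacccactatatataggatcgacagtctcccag
Alb promoter: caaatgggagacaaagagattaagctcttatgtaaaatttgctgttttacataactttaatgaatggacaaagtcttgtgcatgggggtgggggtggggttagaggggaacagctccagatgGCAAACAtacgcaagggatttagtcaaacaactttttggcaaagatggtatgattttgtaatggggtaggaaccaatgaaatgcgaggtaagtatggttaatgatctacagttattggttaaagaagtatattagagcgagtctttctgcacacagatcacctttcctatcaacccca
Apoa1 promoter: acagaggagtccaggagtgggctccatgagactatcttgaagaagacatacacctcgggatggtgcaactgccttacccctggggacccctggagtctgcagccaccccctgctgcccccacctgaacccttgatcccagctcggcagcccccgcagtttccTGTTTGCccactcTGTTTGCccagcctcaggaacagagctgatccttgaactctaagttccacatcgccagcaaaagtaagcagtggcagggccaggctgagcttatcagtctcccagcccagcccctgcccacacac
Ahsg promoter: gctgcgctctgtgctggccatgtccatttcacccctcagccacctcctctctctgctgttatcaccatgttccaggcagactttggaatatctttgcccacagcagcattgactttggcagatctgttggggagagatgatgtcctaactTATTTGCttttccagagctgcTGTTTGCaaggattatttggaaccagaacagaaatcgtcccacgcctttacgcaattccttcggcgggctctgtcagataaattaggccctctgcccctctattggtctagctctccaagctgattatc

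In the combined 24 h lists, FoxA1 had an event at 6 of the 7 loci and near 8 of the 10 members, with 21 events in all. The background was 73.4% of protein-coding genes with a FoxA1 event within 50 kb, so the count of loci lay near what the length of the FoxA1 list gives. That background is a share of single genes, while the Alb and fibrinogen loci merge the windows of 2 and 3 genes. The other factors had no event at any of the 7 loci, where the background was 30.9% of genes for FoxL2, 20.6% for FoxP3 and 7.27% for FoxC1. The median number of events per member was 3 for FoxA1, beside a median of 2 over all genes, and it was 0 for FoxL2, FoxP3 and FoxC1, beside a median of 0 over all genes for each. Event density at the 7 loci was 24.3 per Mb in the FoxA1 list, against 17.2 per Mb near all protein-coding genes.

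**Figure D1:**
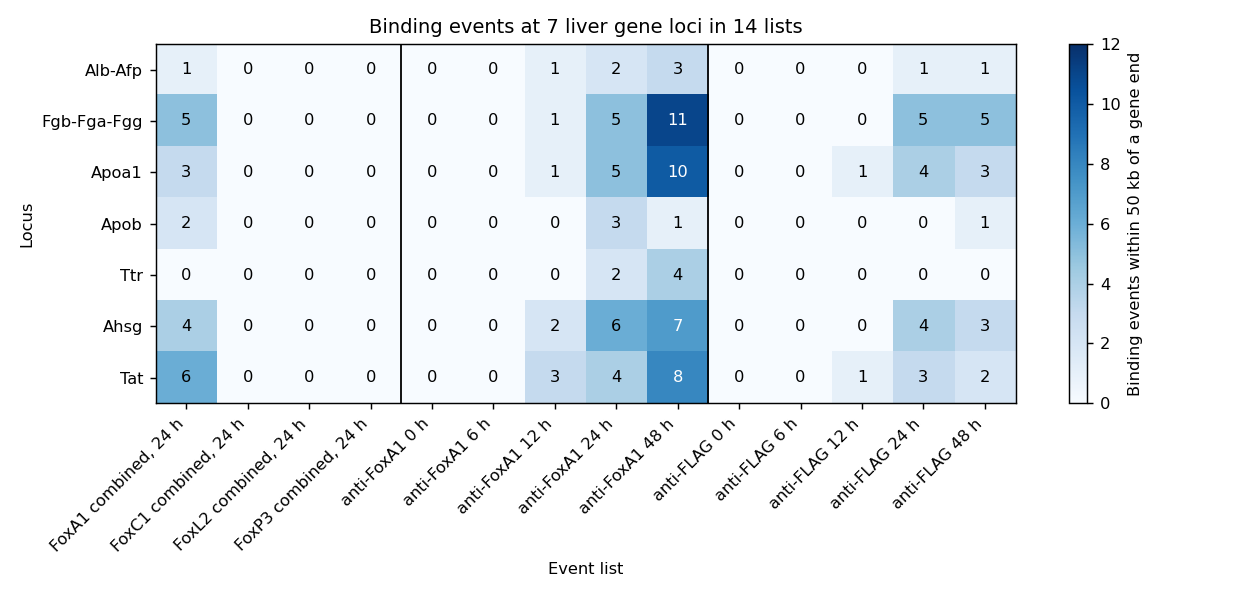
Number of events within 50 kb of the member genes at each of the 7 loci (rows) in each list (columns). FoxA1 lists hold events from 12 h on, with up to 11 at the fibrinogen locus at 48 h, while the columns of FoxC1, FoxL2 and FoxP3 and those of 0 and 6 h hold 0 throughout.

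The lists differ in length, with 32948 events for FoxA1, 7244 for FoxL2, 4385 for FoxP3 and 1112 for FoxC1. Per 10000 events of its list, FoxA1 had 6.37 at the 7 loci (exact binomial 95% interval 3.95 to 9.74). A count of 0, taken to allow up to 3 events, permits up to 4.14 per 10000 for FoxL2, 6.84 for FoxP3 and 27.0 for FoxC1. At the share of FoxA1, the FoxL2 list would hold 4.62 events at the loci, the FoxP3 list 2.79 and the FoxC1 list 0.709, and each held 0. For FoxP3 and FoxC1 those numbers are under the limit of 3. A share below that of the combined FoxA1 list was thus not detectable at their list lengths. For FoxL2 the number is above that limit. The FoxL2 limit of 4.14, and the upper end of its exact 95% interval, 5.09, still lie inside the FoxA1 interval. A lower share for FoxL2 than in the combined FoxA1 list was therefore not established. The anti-FLAG FoxA1 list of 24 h, from 1 library, matches the antibody of the other factors and held 10.6 per 10000 (6.20 to 17.02). Both FoxL2 values lie below that interval, while the limits of FoxP3 and FoxC1 reach into or above it. The anti-FoxA1 list of 24 h held 7.68 (5.06 to 11.2), an interval that includes 5.09 but not 4.14. None of these differences was tested. These intervals cover counting error only, and depth is unknown.

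A shorter FoxA1 list was also read, chosen after the data were seen, by keeping its highest scores. The score is the value the authors deposited with each event, running to 1000 on a scale that is not given. At the length of the FoxL2 list (7260 events kept, with ties), FoxA1 retained events at 6 of 7 loci with a background of 31.6% of genes, against 0 of 7 loci and 30.9% for FoxL2. At the length of the FoxP3 list it retained 4 of 7 loci with a background of 21.4%, against 0 of 7 and 20.6% for FoxP3. At the length of the FoxC1 list it retained 1 of 7 with a background of 6.20%, against 0 of 7 and 7.27% for FoxC1. The highest scores of one list were set here against all events of another.

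**Figure D2:**
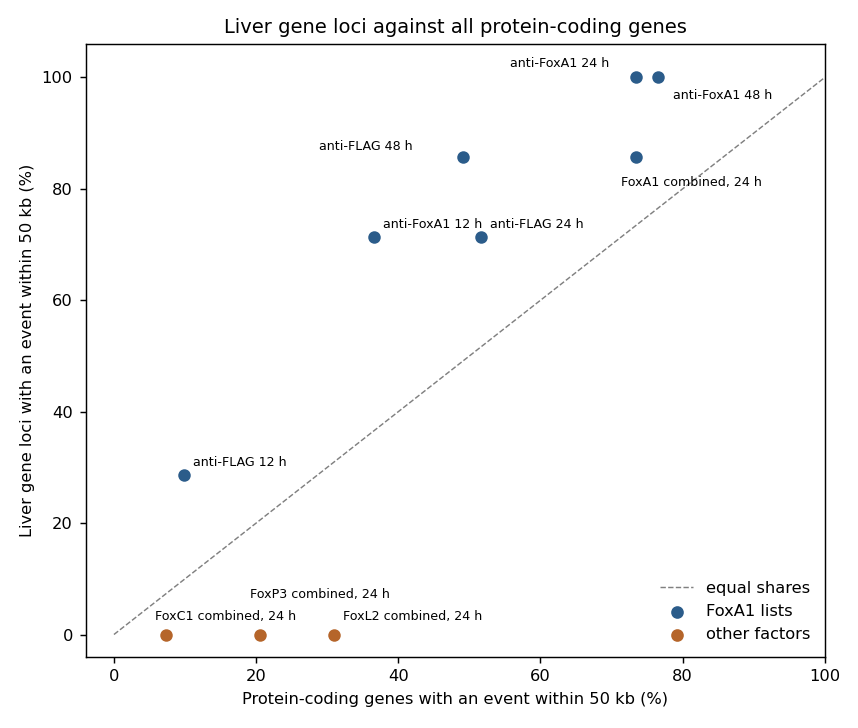
Percent of the 7 loci with an event within 50 kb (vertical axis) against percent of 21883 protein-coding genes with one (horizontal axis), for each list with 1000 events or more, with equal shares on the dashed line. The FoxA1 points lie above the line and those of FoxC1, FoxL2 and FoxP3 at 0. Loci, of which some merge the windows of 2 or 3 genes, are set here against single genes.

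**Figure D3:**
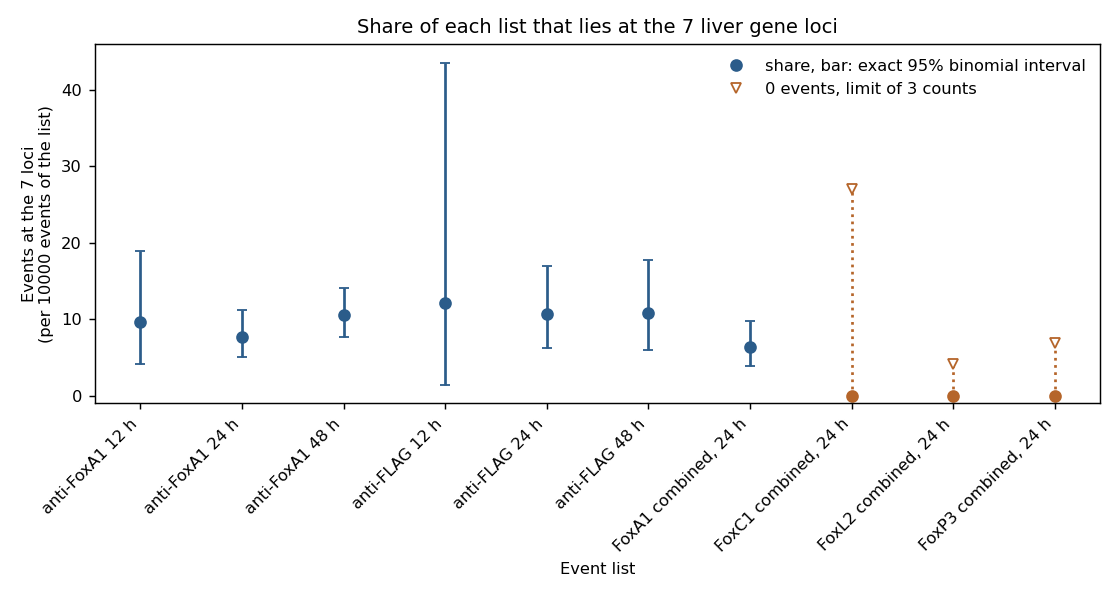
Events at the 7 loci per 10000 events of each list, with exact binomial 95% intervals for the FoxA1 lists and, for lists with 0 events there, the limit that a count of 0 allows. The combined FoxA1 list has 6.37 (3.95 to 9.74), and the limits of FoxL2 (4.14), FoxP3 (6.84) and FoxC1 (27.0) reach into or above that interval.

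Of the plasma carriers, Alb (chromosome 5, 90460870 to 90476602, plus strand) encodes the main osmotic protein and general carrier of adult plasma, and Afp (chromosome 5, 90490714 to 90508907, plus strand) its fetal counterpart. Their locus had 1 event in the combined FoxA1 list, at 90431383, 29487 bp upstream of the start of Alb, with a score of 305 at percentile 82.2 of that list. Events within 100 bp of it came with anti-FoxA1 at 12, 24 and 48 h, with scores of 65, 480 and 402. They came with anti-FLAG at 24 and 48 h, with scores of 202 and 390. The place was thus held in 6 FoxA1 lists and was the one place of the locus in more than 1 list. A further event lay 18257 bp upstream of Alb with anti-FoxA1 at 24 h (score 164), and another 18370 bp upstream at 48 h (score 213). Between the place 18257 bp upstream of Alb and 50 kb beyond Afp no list had an event, so none lay in either gene body or promoter.

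Ttr (chromosome 18, 20664209 to 20674326) encodes the carrier of thyroxine and retinol-binding protein, and its promoter is one of those through which FoxA proteins were discovered in liver. It was the locus without an event in the combined FoxA1 list, and it had none with anti-FLAG at any time. With anti-FoxA1 it had 2 events at 24 h and 4 at 48 h. One place 15157 bp below its lower end was in both, with scores of 186 and 158. At 24 h the other event lay inside Ttr, 958 bp from its lower end, with a score of 43. The distance of that event to the start of Ttr was not read, as Ttr had no promoter entry. At 48 h the other 3 events lay in the neighbouring gene B4galt6, 28683, 36389 and 42593 bp from Ttr, with scores of 51, 114 and 93.

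Ahsg (chromosome 16, 22892015 to 22899451, plus strand) encodes fetuin-A, a plasma inhibitor of calcification. The combined FoxA1 list had 4 events at its locus. One, with a score of 68, lay 630 bp beyond its end, in a stretch where 6 FoxA1 lists together placed 12 events between 22900078 and 22900418. In that stretch anti-FoxA1 gave a score of 55 at 12 h, scores of 373, 241 and 265 at 24 h, and 341, 263 and 188 at 48 h. Anti-FLAG gave 202 and 235 at 24 h, and 364 and 81 at 48 h. The position 3688 bp inside Ahsg was in 4 lists, with scores of 289 and 339 for anti-FoxA1 and 265 and 188 for anti-FLAG at 24 and 48 h, and it was absent from the combined list. The remaining combined events lay 42581 to 43351 bp beyond Ahsg, closer to Fetub, which encodes the related fetuin-B, and the strongest had a score of 331.

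Apoa1 (chromosome 9, 46228630 to 46230469, plus strand) encodes the main protein of high-density lipoprotein. The place held in all 7 FoxA1 lists with events at the loci lay 26046 bp upstream, at 46202584, inside Sik3, which encodes a salt-inducible kinase. Its score was 517 in the combined list. With anti-FoxA1 it was 170 at 12 h, 640 at 24 h and 1000 at 48 h, and with anti-FLAG it was 58, 349 and 628. A second place in Sik3, 12850 bp upstream of Apoa1, was in 5 lists from 24 h on, with a score of 43 in the combined list. Close to the gene, a place 1169 bp beyond its end was in the anti-FoxA1 lists of 24 and 48 h (scores 85 and 119) and in the anti-FLAG list of 24 h (66). A place 13223 bp beyond its end, 234 bp from the related apolipoprotein gene Apoa4, was in 4 lists and absent from the combined one. The single event inside Apoa1 itself was at 48 h with anti-FoxA1, with a score of 45.

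Apob (chromosome 12, 7977629 to 8016839, plus strand) encodes the core protein of low-density and very-low-density lipoproteins. The combined FoxA1 list had 2 events there. One at 7950487, 27142 bp below its lower end, scored 817 (percentile 95.4), while the same place scored 93 with anti-FoxA1 and 66 with anti-FLAG at 48 h and was in neither 24 h list of the time courses. The other, 1004 bp inside the gene, scored 124, and anti-FoxA1 at 24 h had an event there with a score of 43. Anti-FoxA1 at 24 h also had 2 events found in no other list, 3343 bp inside the gene (score 43) and 48742 bp beyond it (score 139). No place at Apob was in 5 or more lists.

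**Figure D4:**
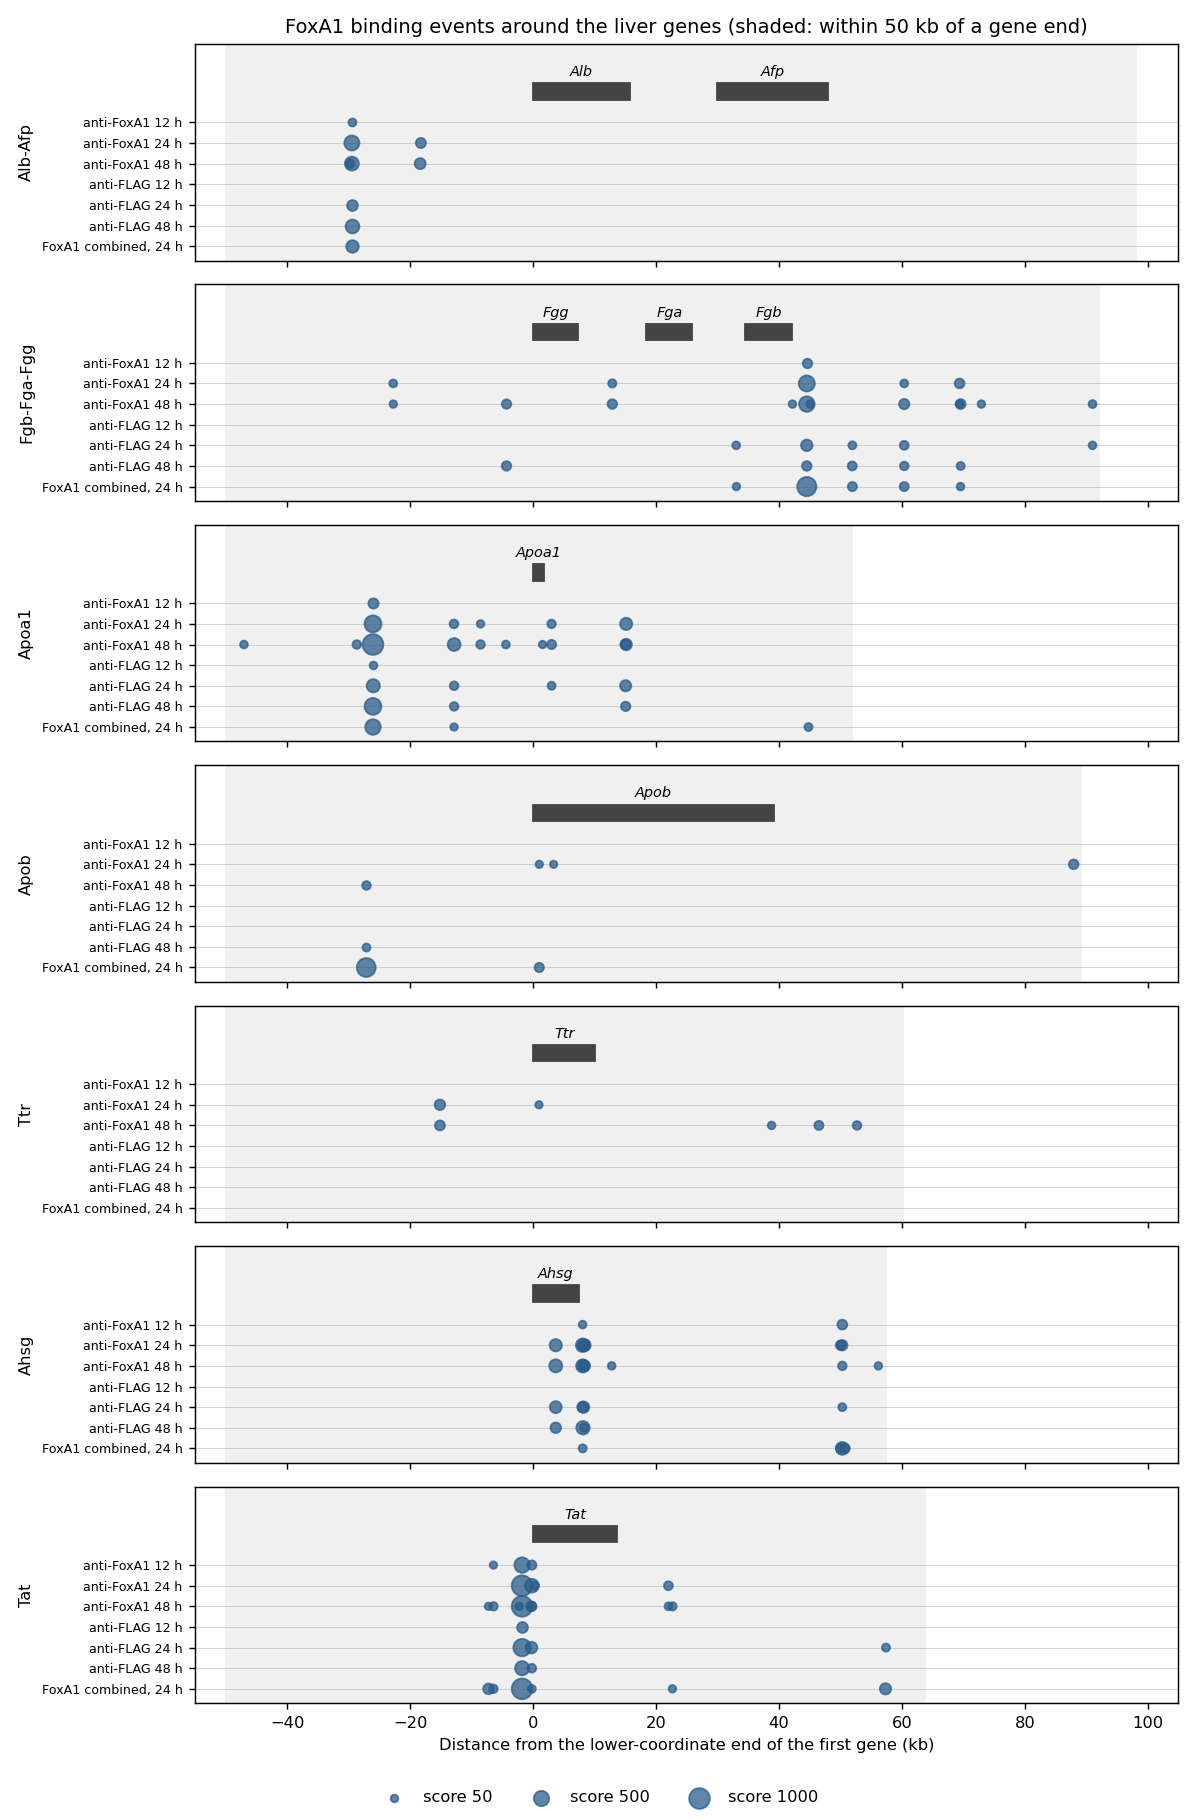
FoxA1 events at the 7 loci by distance in kb from the lower-coordinate end of the first gene, with member genes as dark bars, the 50 kb windows shaded, 1 row per list and marker size for the score. Places held in 5 or more lists lie upstream of Alb, Fgb, Apoa1 and Tat and just beyond and 42872 bp beyond Ahsg, and the Ttr panel has events in 2 rows.

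The fibrinogen chains assemble into the clotting protein of plasma. Fgg (chromosome 3, 83007724 to 83015056, plus strand), Fga (83026153 to 83033627, plus strand) and Fgb (83042246 to 83049863, minus strand) lie next to each other. The locus had 5 events in the combined FoxA1 list and 13 places over all lists, the most of any locus. The strongest lay at 83052258, 2395 bp upstream of Fgb, with a score of 848 (percentile 95.6). The same place scored 132, 560 and 517 with anti-FoxA1 at 12, 24 and 48 h, and 242 and 138 with anti-FLAG at 24 and 48 h, so it was in 6 lists. Of the other combined events, 3 lay further upstream of Fgb: 9813 bp away with a score of 117 and 18241 bp away with a score of 113, both inside the splicing factor gene Plrg1, and 27410 bp away with a score of 53. The last lay 1440 bp beyond the other end of Fgb with a score of 48.

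No promoter window was read for Ttr. The one event inside the windows of the other 9 members lay at 83049926, with anti-FoxA1 at 48 h and a score of 50. It was 63 bp upstream of the start of Fgb. It fell at base 188 of the printed Fgb window, 36 bp from the capital letters, which begin at base 146 and lie at 83049962 to 83049968. Over all promoters of the same length, 1.83% held an event in that list. Matches in the promoters of Alb, Afp, Apoa1, Apob and Ahsg had no event in their window in any list.

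Tat (chromosome 8, 109986078 to 109999804, plus strand) had the most events of the 7 loci in the combined FoxA1 list, with 6. Its RefSeq promoter start lies 4358 bp inside the lower gene end. The place at 109984291, 1787 bp below that end and 6145 bp upstream of the promoter start, was in all 7 FoxA1 lists with events at the loci. Its score was 1000 in the combined list, 510, 1000 and 1000 with anti-FoxA1 at 12, 24 and 48 h, and 202, 684 and 416 with anti-FLAG at those times. It stood at percentile 98.4 of the combined list and at 98.6, 99.5 and 99.4 of the anti-FoxA1 lists. A second place, 202 bp below the lower end, was in 6 lists, with a score of 62 in the combined list, 126 at 12 h, 386 at 24 h and 122 and 146, for 2 events, at 48 h with anti-FoxA1, and 254 and 97 with anti-FLAG at 24 and 48 h. A place 6449 bp below the lower end of Tat was in 3 lists. The genes outside its window whose event counts over the 14 lists were nearest to those of Tat were Agpat3, Igdcc4 and Ldb3, each with a sum of absolute differences of 3 events.

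In the time courses, no member had an event at 0 or 6 h with either antibody. Those lists held 15 and 86 events with anti-FoxA1 and 20 and 17 with anti-FLAG, and the background was 0.0731% and 0.576% of genes with anti-FoxA1 and 0% and 0.0411% with anti-FLAG. With anti-FoxA1, 5 loci and 7 members had an event at 12 h (background 36.6%), and all 7 loci and 10 members had one at 24 h (73.5%) and at 48 h (76.6%). The events at the loci numbered 8, 27 and 44 at those times, in lists of 8345, 35134 and 41726 events. With anti-FLAG, 2 loci and 2 members had an event at 12 h (background 9.81%), 5 loci and 7 members at 24 h (51.6%), and 6 loci and 8 members at 48 h (49.1%). The events numbered 2, 17 and 15, in lists of 1656, 15984 and 13899 events.

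The first loci to hold an event with anti-FoxA1, at 12 h, were Tat with 3, Ahsg with 2, and the Alb, fibrinogen and Apoa1 loci with 1 each. With anti-FLAG at 12 h they were Tat and Apoa1, with 1 each, at the 2 places held in 7 lists. Apob and Ttr had their first events at 24 h with anti-FoxA1. At 48 h with anti-FoxA1 the fibrinogen locus had 11 events, Apoa1 10, Tat 8, Ahsg 7, Ttr 4, the Alb locus 3 and Apob 1. With that antibody Apob was the locus with fewer events later, with 3 at 24 h and 1 at 48 h, while the other 6 had more at 48 h. With anti-FLAG, Apob went from 0 at 24 h to 1 at 48 h. Apoa1 and Ahsg went from 4 to 3 each and Tat from 3 to 2. The fibrinogen (5), Alb (1) and Ttr (0) loci had equal counts at both times.

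Per 10000 events of the list, the loci held 9.59 (95% interval 4.14 to 18.9) at 12 h, 7.68 (5.06 to 11.2) at 24 h and 10.5 (7.66 to 14.2) at 48 h with anti-FoxA1. With anti-FLAG they held 12.1 (1.46 to 43.6), 10.6 (6.20 to 17.02) and 10.8 (6.04 to 17.8). All of these intervals overlap, and the differences in share over time and between antibodies were not tested. Density at the loci was above that near all genes in each: 9.28 against 4.47 per Mb at 12 h, 31.3 against 18.9 at 24 h and 51.0 against 22.8 at 48 h with anti-FoxA1. With anti-FLAG it was 2.32 against 0.890, 19.7 against 8.36 and 17.4 against 7.23 per Mb.

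Joining events within 100 bp gave 52 places at the 7 loci, all from FoxA1 lists. Of these, 8 appeared first at 12 h, 28 at 24 h and 16 at 48 h, and the 8 places of 12 h were all held again at 48 h. Places in a single list numbered 22 (42.3%, beside 47.1% of 62838 FoxA1 places over the genome), and those in 5 or more lists numbered 9 (17.3%, beside 14.2%). The 9 were 2 each at the fibrinogen, Apoa1, Ahsg and Tat loci and 1 upstream of Alb. Of the single-list places, 15 came from anti-FoxA1 at 48 h, 5 from anti-FoxA1 at 24 h and 2 from the combined list. For 29 of the 52 places the nearest protein-coding gene was a member, and 6 lay inside one, so for 23 another gene such as Sik3, Plrg1 or B4galt6 was nearer.

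**Figure D5:**
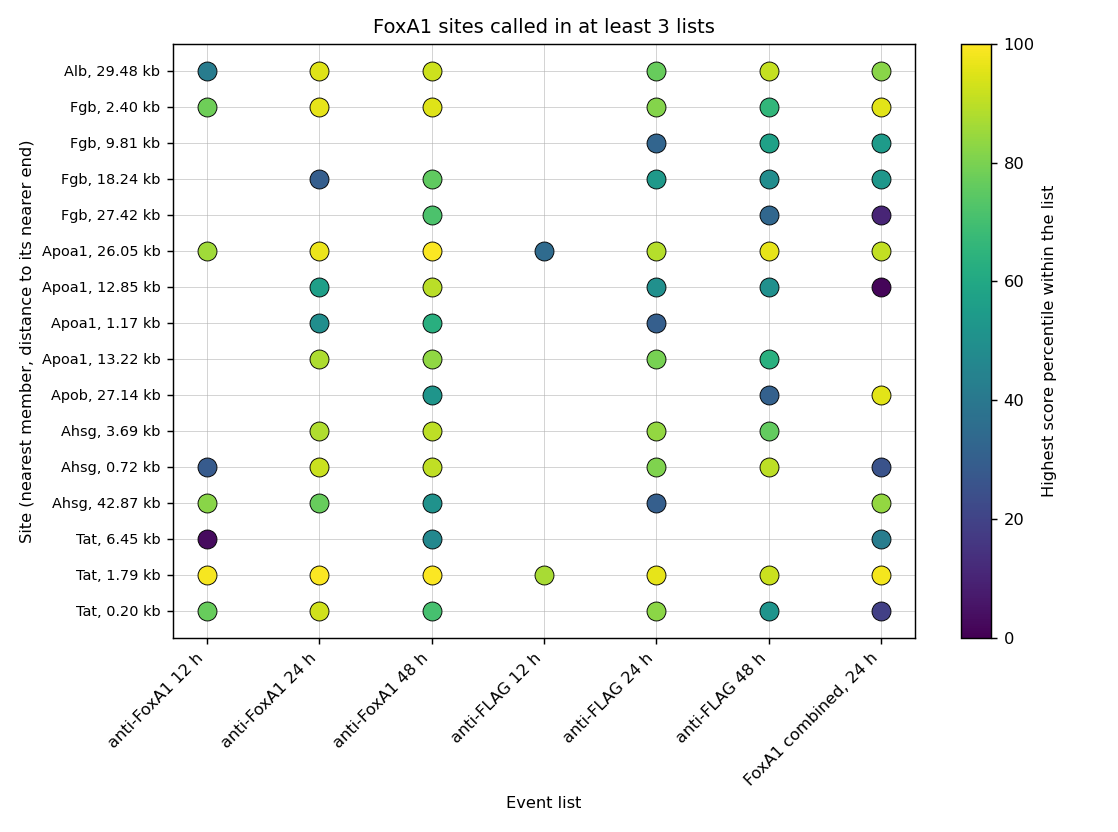
The 16 places at the loci held in at least 3 FoxA1 lists (rows, by nearest member and distance to its nearer end in kb) and the lists that hold each (columns), coloured by the highest score percentile within the list. The places near Tat (1787 bp) and Apoa1 (26046 bp) are held in all 7 columns, Apob has 1 row and Ttr has none.

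With anti-FoxA1, 7 of the 8 events of 12 h at the loci had an event within 100 bp at 24 h (87.5%, 95% interval 47.3 to 99.7), beside 89.2% for the whole list. Of the 27 events of 24 h, 20 had one at 48 h (74.1%, 53.7 to 88.9), beside 72.0% for the whole list. With anti-FLAG, 12 of 17 events of 24 h had one at 48 h (70.6%, 44.0 to 89.7), beside 61.3%. Each whole-list share lay inside the interval of the loci, and the difference was not tested.

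Between antibodies, 13 of the 17 anti-FLAG events of 24 h had an anti-FoxA1 event within 100 bp (76.5%, 50.1 to 93.2), beside 86.0% for the whole list. In the other direction, 13 of 27 anti-FoxA1 events had an anti-FLAG one (48.1%, 28.7 to 68.1), beside 40.5%. At 48 h the shares were 14 of 15 (93.3%, 68.1 to 99.8), beside 90.2%, and 16 of 44 (36.4%, 22.4 to 52.2), beside 31.0%. The anti-FoxA1 lists were the longer ones at both times. Of the 21 combined events, 11 had an anti-FoxA1 event of 24 h within 100 bp (52.4%, 29.8 to 74.3, beside 54.8%) and 12 an anti-FLAG one (57.1%, 34.0 to 78.2). The second share lay above the 33.0% of the whole combined list, which was just below its interval, 1 of 14 such shares computed.

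The scores at the loci were spread over each list. The median percentile of the members' events was 54.3 in the combined list, 77.45, 70.1 and 53 with anti-FoxA1 at 12, 24 and 48 h, and 60.7, 76.6 and 63.3 with anti-FLAG. In the combined list 4 of the 21 events stood at percentile 90 or above, at Fgb, Apoa1, Apob and Tat.

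For FoxL2, FoxP3 and FoxC1 the distance from a member to the nearest event was read in place of a count. The nearest FoxL2 event lay 53906 bp from Ahsg, inside Hrg, 58243 bp from Ttr, 75516 bp from Apoa1, 77634 bp from Fgg, 93484 bp from Tat, 189644 bp from Alb and 197921 bp from Apob. The nearest FoxP3 event lay 53631 bp from Ttr, inside B4galt6, 91874 bp from Fgg and 121313 bp from Ahsg, and those of the other loci were from 213944 bp (Apoa1) to 1591568 bp (Afp) away. The nearest FoxC1 events were 247125 bp (Ttr) to 3790313 bp (Fgg) away. With a window of 100 kb, FoxA1 had an event at all 7 loci (background 84.8%), FoxL2 at 5 (46.3%), FoxP3 at 2 (32.8%) and FoxC1 at none (12.2%), so the absence of FoxL2 and FoxP3 holds for 50 kb and not for 100 kb.

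Other liver genes were read by the same 50 kb rule, gene by gene and not by locus, so genes close to each other, such as Apoa2 and Nr1i3, can share events. Of 20 other secreted plasma proteins, 15 had a FoxA1 event in the combined list, against 4 for FoxL2, 5 for FoxP3 and 1 for FoxC1. The backgrounds of 73.4% of genes for FoxA1, 30.9% for FoxL2, 20.6% for FoxP3 and 7.27% for FoxC1 apply to this list and those that follow, and the counts of the plasma proteins lie near or below them. The most events were near the kininogen gene Kng1 (9), the ceruloplasmin gene Cp (5, the nearest 153 bp away), the transferrin gene Trf (5) and Apoa2 (5). Kng1 also had 1 FoxL2 and 3 FoxP3 events, and the antithrombin gene Serpinc1 had 3 FoxL2, 2 FoxP3 and 1 FoxC1 events. The other FoxL2 events were near Trf (3530 bp) and the vitronectin gene Vtn. Those of FoxP3 were near Itih3 (8432 bp), Apoh (9869 bp) and Cp (14339 bp). Itih3 and Apoh encode an inter-alpha-trypsin inhibitor chain and beta-2-glycoprotein.

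Of 13 hepatocyte enzymes, 11 had a FoxA1 event in the combined list, against 3 for FoxL2, 1 for FoxP3 and 0 for FoxC1. The most were near the urate oxidase gene Uox (7), the gluconeogenic Fbp1 (5), Hpd (4), of tyrosine breakdown like Tat, and the urea cycle gene Cps1 (3). FoxL2 had 2 events near Cps1 (the nearest 4444 bp away) and 1 each near Uox and Hpd, and FoxP3 had 1 near Hpd. Of 10 liver transcription factors, 9 had a FoxA1 event, against 2 for FoxL2, 1 for FoxP3 and 0 for FoxC1. The most were near the nuclear receptors Nr5a2 (7) and Nr1i3 (5), Prox1 (4) and Foxa2 (4), the last of the same group as FoxA1 itself. FoxL2 had events near Foxa3 and Hnf4a, and FoxP3 near Nr5a2. With anti-FoxA1 at 12, 24 and 48 h the plasma protein genes with an event numbered 6, 18 and 17 of 20, the enzymes 2, 9 and 11 of 13, and the transcription factors 5, 9 and 10 of 10, beside backgrounds of 36.6%, 73.5% and 76.6% of genes.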

How the data were processed

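ChIP-exo libraries of tagged Forkhead factors in mouse embryonic stem cells were grouped by factor, hours and antibody from the titles and characteristics. Reads went through BWA 0.7.17-r1188, Picard and SAMtools against mm10, as the submitters' processing notes list. Per the file headers, ChExMix made the events. Its version, controls and thresholds and the way libraries were combined are not given in these sources. Each event carries a deposited score, whose scale is unknown and whose ceiling is 1000. The files hold no reads, so depth is unknown and the intervals given cover counting error only.

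Events within 50 kb of either end of a gene were counted (21883 protein-coding RefSeq genes, GRCm38.p6, chromosomes 1 to 19, X and Y), with exact binomial 95% intervals, and 3 events as the limit for a count of 0. Events within 100 bp were joined into places. Score percentiles are mid-ranks within a list. Counting was tested on simulated data, with 200 of 200 genes right. The genes named are all members, the nearest genes to the events described, up to 4 genes of each other list with the most FoxA1 events, up to 4 with an event of each other factor, and the 3 genes most like the locus with the most events in the combined FoxA1 list. Members and lists were chosen with earlier results of these data known. Alternatives changed the window, the joining distance, the score threshold and the list length. Some items of the series and some genes of the other lists are not reported here, and the empty control line has no list used here. Scripts ran in Python 3.11.15 with pandas 2.3.3, numpy 2.4.6 and scipy 1.17.1.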

Additional observations from a re-analysis of the deposited data

How the results depend on the processing

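Of 94 values recomputed for 22 counts under other settings, 19 moved by more than 1.5 times, 23 were 0 both as reported and under the other setting, and the remaining 52 stayed within 1.5 times. For the combined FoxA1 list (21 events at the loci), the count was 12 with a 20 kb window, 43 with 100 kb and 13 with scores at or above the list median. Kept at the length of the FoxL2, FoxP3 and FoxC1 lists, a setting chosen after seeing the data, it was 6, 4 and 1, and the FoxC1 length left 1 locus. With 100 kb, FoxL2 had 6 events at 5 loci and FoxP3 6 events at 2 loci. Anti-FoxA1 at 24 h (27 events) had 46 with 100 kb, and anti-FLAG at 24 h (17 events) had 27 with 100 kb and 11 with scores at or above the list median. Anti-FoxA1 at 48 h (44 events) had 28 with 20 kb, 70 with 100 kb and 27 with that score threshold. With that score threshold, the 52 places became 34, and the combined places also held in a 24 h list of the time courses, 14 as reported, became 7. These settings admit fewer or more events by construction. No paired analysis was possible because the libraries of a factor were deposited as 1 combined list and no result comes from a test. For the same reason no library could be left out. List length limits the zeros of FoxP3 and FoxC1, whose lists would hold 2.79 and 0.709 events at the share of the combined FoxA1 list.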

Other observations

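Just outside the 50 kb window, 2 FoxL2 and 2 FoxP3 events were read against the FoxA1 lists. Near Dsg2, which encodes a desmosomal cadherin, the FoxL2 event 58243 bp from Ttr (score 71) had events of 4 FoxA1 lists within 100 bp, those of anti-FoxA1 and anti-FLAG at 24 and 48 h. The FoxP3 event 58765 bp from Ttr (score 141) had an event of 1 FoxA1 list within 100 bp, that of anti-FoxA1 at 24 h. The FoxP3 event in B4galt6, 53631 bp from Ttr, and the FoxL2 event in Hrg, 53906 bp from Ahsg, had none. No event of the combined FoxA1 list lay within 100 bp of any of these. The share of all FoxL2 or FoxP3 events with a FoxA1 event this near was not computed. Beyond Apob, a place 52015 to 52061 bp from its upper end was held in 5 FoxA1 lists, with a score of 407 in the combined list, 183 and 203 with anti-FoxA1 and 62 and 84 with anti-FLAG at 24 and 48 h. Just inside the window, the outermost FoxA1 events lay 48739 bp from Ahsg, 48742 bp from Apob and 48880 and 48881 bp from Fgb.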
